A study of Homo sapiens with 45 samples.

Results

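Fibronectin, the thrombospondins and other secreted proteins of the extracellular matrix were followed through 10 genes chosen by name: FN1, THBS1, THBS2, TNC, POSTN, SPARC, FBN1, VCAN, LUM and DCN. They are 10 of 41582 gene symbols in the deposited tables, of which 37486 had at least 1 count, and they are covered by 58 transcripts whose values were summed per gene. The study sequenced messenger RNA of 7 Ewing sarcoma lines (A673, TC71, SKES1, RDES, MHHES1, EW3 and EW24) and 6 osteosarcoma lines (U2OS, SAOS2, MG63, G292, KHOS and HOS-MNNG), with 3 libraries a line and no treatment named in the labels. It also sequenced A673 cells carrying sh908, a hairpin RNA against the potassium channel gene KCNN1 that doxycycline switches on, with 3 libraries without doxycycline (uninduced) and 3 with it (induced). G292 is labelled as clone A141B1, HOS-MNNG as MNNG/HOS Cl #5 and KHOS as KHOS/NP. HOS-MNNG and KHOS both descend from the HOS line, so the 6 osteosarcoma lines come from fewer tumours. The labels do not say whether the 3 libraries of a group are separate cultures, or whether the sh908 cells are a clone or a pool, so p-values measure only the spread between these samples.

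The extracellular matrix is the protein and sugar mesh that cells secrete around themselves. Fibronectin is assembled by cells into fibrils that integrin receptors grip, and fibrillin forms the microfibrils that carry elastic fibres and store latent growth factors. Thrombospondins, tenascin-C, periostin and SPARC are called matricellular proteins because they mainly modify how cells adhere and signal and do little to build the mesh. Lumican and decorin are small leucine-rich proteoglycans that bind collagen fibrils, and versican is a large chondroitin sulfate proteoglycan that binds hyaluronan. Osteoblast-lineage cells, which osteosarcomas resemble, are known for secreting such a matrix, whereas Ewing sarcoma is a small round cell tumour driven by an EWSR1 fusion.

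Total estimated counts ran from 23132161 to 51413254 in the 21 Ewing libraries, from 15974173 to 44911542 in the 18 osteosarcoma libraries and from 16619617 to 24818664 in the 6 sh908 libraries. The labels were checked against marker genes. Of 8 Ewing sarcoma markers, 6 were called higher in the Ewing lines, among them PRKCB, LIPI and CCK. The list summed to 1160.3 to 2477 TPM (a scaled share of the library per unit of transcript length) in the Ewing lines. In the osteosarcoma lines it summed to 153 to 969.9 TPM. CD99 held much of these sums, with 944 TPM in MG63 and 290 TPM in EW24. CCK was at only 1.98 TPM in A673 and 1.03 TPM in TC71. NR0B1 was lower in MHHES1 and RDES than in U2OS (0.651, 0.316 and 2.45 TPM). Of 8 osteoblast-lineage markers, 6 were tested and 4 were called lower in the Ewing lines, among them SPP1, RUNX2 and COL1A1, and the list summed to 9.57 to 295 TPM there and to 132 to 4267 TPM in the osteosarcoma lines. ALPL, another of these 8, was at 20.6 TPM in A673, 36.1 in EW24, 58.1 in TC71, 110 in MHHES1 and 187 in SKES1. These Ewing lines stood above every osteosarcoma line but SAOS2 (824 TPM), whereas RDES and EW3 lay below G292 as well. RUNX2 was lower in MG63 than in SKES1 (0.390 and 6.77 TPM). SPP1 was lower in MG63 than in A673 (0.0269 and 0.617 TPM). The osteoblast transcription factor SP7 reached 22.1 TPM in SAOS2 and IBSP stayed at or below 0.367 TPM in every line. Of 13 markers of other cell types, 9 were tested and 2 (CD14 and PECAM1) were called lower in the Ewing lines. Apart from KRT18, the highest of these 13 was EPCAM at 27.5 TPM, in SAOS2. In bulk samples, fewer cells of a type and less RNA per cell cannot be told apart.

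All 10 genes had a higher mean level in the osteosarcoma lines, 7 also had a higher median there (not FN1, POSTN and DCN), and 4 passed the test as lower in the Ewing lines: THBS1, FBN1, VCAN and LUM. The line means of these 4, and of the uncalled THBS2, POSTN and DCN, were below 10 TPM in every Ewing line. All of these genes but THBS1 were also below 10 TPM in some osteosarcoma lines. By contrast, FN1 and SPARC were abundant in lines of both tumour types. The test was edgeR's quasi-likelihood test on counts summed per line, 7 lines against 6, with the adjusted p (Benjamini-Hochberg, over all 22000 genes tested) under 0.05 as the call. It called 14.4% of all genes, 8.4% as lower in the Ewing lines. DESeq2 on the same sums called 6 of the 10, with THBS2 and POSTN added, and 24.6% of all genes. The median log2 fold change of the 10 genes was -4.40, and that of all genes tested was -0.06. The 4 osteoblast markers called lower and the 6 Ewing markers called higher belong to the same comparison, and their part in these differences was not tested.

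**Figure D1:**
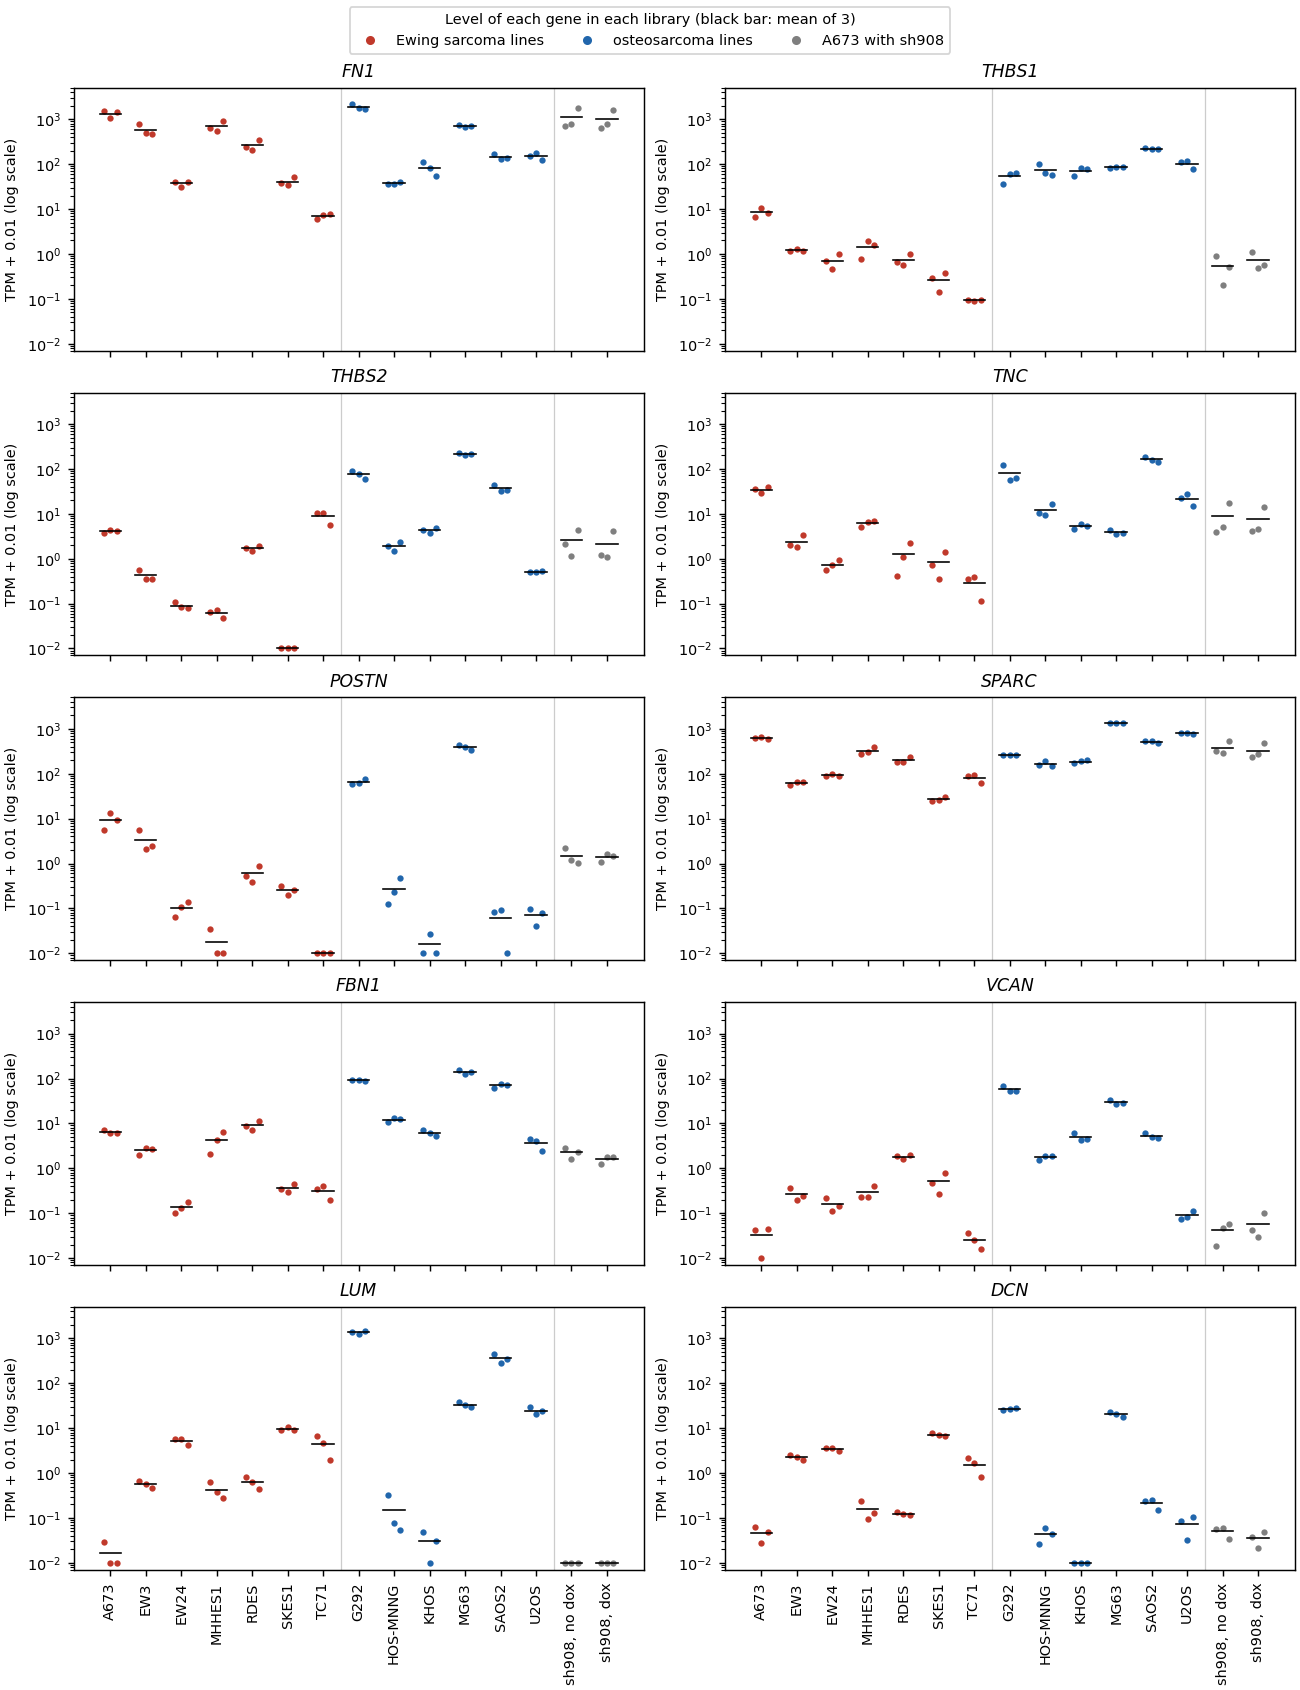
Level of each gene in every library (points, TPM + 0.01 on a logarithmic axis) with the mean of 3 libraries (black bars), for the Ewing, osteosarcoma and sh908 groups in separate colours. The 2 tumour types are apart for THBS1 only, with A673 as the highest Ewing line at 8.38 TPM and G292 as the lowest osteosarcoma line at 53.1 TPM.

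FN1 encodes fibronectin and lies at chr2:215360865-215436068 (RefSeq, GRCh38.p14). Across the 7 Ewing lines its level ran from 6.96 TPM in TC71 through a median of 264 to 1340.4 TPM in A673. Across the 6 osteosarcoma lines it ran from 37.6 TPM in HOS-MNNG through a median of 148 to 1893 TPM in G292. The types overlapped over nearly their whole range, and within each type the highest line held many times the lowest. In order, G292 and A673 (1340.4 ± 221 TPM, SD, n = 3) stood above MG63 (709.9 ± 48.8), MHHES1 (702 ± 199) and EW3 (575 ± 173), whose libraries overlapped. RDES followed at 264 ± 76.4 TPM, then U2OS (153 ± 26.3) and SAOS2 (142 ± 20.6), which overlapped, and KHOS (83.4 ± 28.9). SKES1, HOS-MNNG and EW24 lay between 37.4 and 40.8 TPM and did not differ beyond their spread, and TC71 stood below all others in each of its libraries. FN1 did not pass the test between the tumour types (log2 fold change -0.33, SE 1.10, edgeR adjusted p = 0.875). Without G292, its log2 fold change was 0.85 (adjusted p = 0.661).

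Fibronectin messages differ by 2 alternative exons, each of which encodes 1 extra repeat of the protein, and the lines differed mainly in the first of them. Both exons are printed because the transcript shares turn on them, in capitals on the minus strand with 12 bases of the neighbouring exons of the spliced message in lower case (GENCODE v29, GRCh38). The exon of extra domain B lies at chr2:215392931-215393203 and is in 3 of 27 annotated FN1 transcripts. That of extra domain A lies at chr2:215380811-215381080 and is in 6 of the 27.
Extra domain B: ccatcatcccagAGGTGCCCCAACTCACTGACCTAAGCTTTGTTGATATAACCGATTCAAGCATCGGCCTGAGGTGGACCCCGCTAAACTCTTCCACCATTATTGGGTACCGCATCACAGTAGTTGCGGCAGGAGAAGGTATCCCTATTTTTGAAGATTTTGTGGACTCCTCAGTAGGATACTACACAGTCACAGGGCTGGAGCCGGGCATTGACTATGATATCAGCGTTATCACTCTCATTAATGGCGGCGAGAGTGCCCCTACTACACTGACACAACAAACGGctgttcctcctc
Extra domain A: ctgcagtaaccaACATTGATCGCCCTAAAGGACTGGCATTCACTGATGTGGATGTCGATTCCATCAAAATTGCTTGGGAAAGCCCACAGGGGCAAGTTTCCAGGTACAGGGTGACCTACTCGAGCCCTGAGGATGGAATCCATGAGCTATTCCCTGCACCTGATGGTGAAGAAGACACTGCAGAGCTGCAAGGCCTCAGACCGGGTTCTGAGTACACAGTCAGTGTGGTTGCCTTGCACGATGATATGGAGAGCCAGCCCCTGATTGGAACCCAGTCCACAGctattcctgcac
Extra domain A was in nearly all FN1 message of every line. Its share of FN1 TPM was 94.1% ± 3.69 (SD, n = 7) in the Ewing lines and 94.5% ± 4.13 (SD, n = 6) in the osteosarcoma lines, with MG63 lowest at 86.7%. Extra domain B was spread far wider. It was in 13.1% ± 6.61 (SD, n = 3) of FN1 message in TC71, 41.7% in A673, 46.2% in EW24, 55.4% in MHHES1, 63.6% in EW3, 89.7% in SKES1 and 97.0% ± 0.579 in RDES. Among osteosarcoma lines it was in 18.05% ± 1.21 in MG63, 22.4% in KHOS, 33.9% in HOS-MNNG, 56.3% in G292, 61.9% in SAOS2 and 67.5% ± 5.64 in U2OS. The types overlapped, at 58.1% ± 28.8 (SD, n = 7) in Ewing and 43.3% ± 21.3 (SD, n = 6) in osteosarcoma lines. TC71, the line with the least FN1, had the smallest share, but A673 and MG63, with high FN1 levels, also lay in the lower part of the order. The lowest FN1 count behind such a share was 932, in a TC71 library. The variable region near the end of the coding message was in its longest form in 37.4% of Ewing and 35.9% of osteosarcoma FN1 message and in its most common form, a shorter one, in 57.6% and 59.1%. These shares were assigned by the transcript quantifier from short reads, 17 of the 18 transcripts could be classed by length, and no test was made of them.

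**Figure D2:**
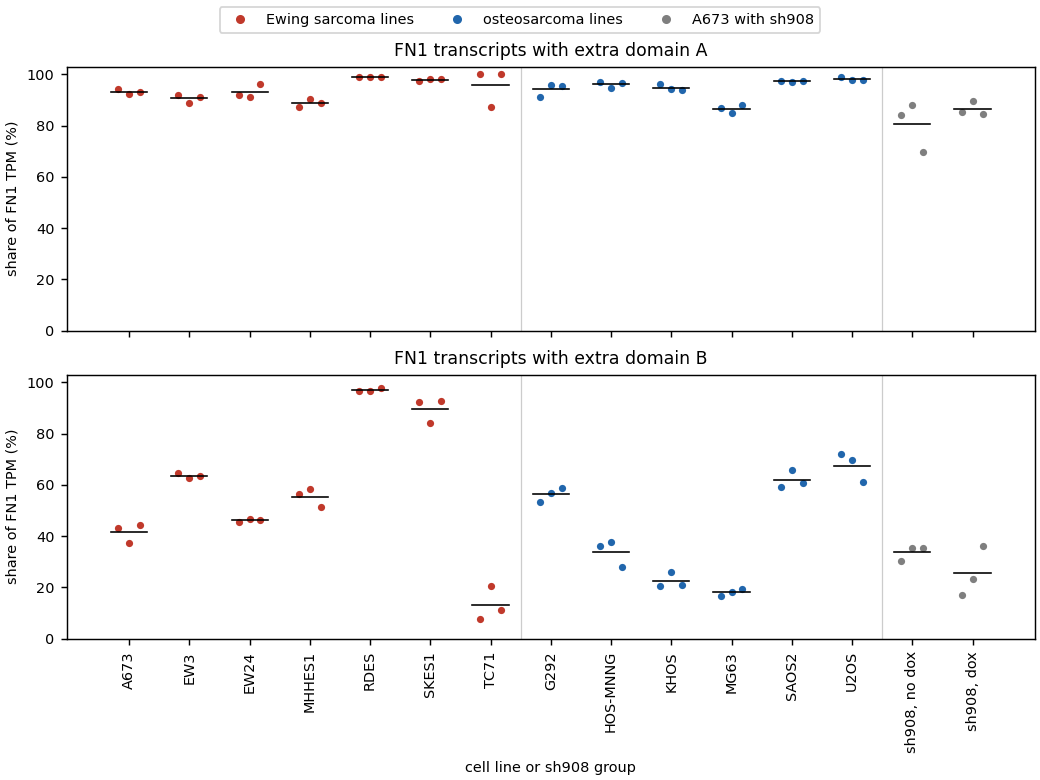
Percent of FN1 TPM from transcripts with extra domain A and with extra domain B in each library, by line, with the mean of the 3 libraries. Extra domain A is at 86.7% or more in the mean of each of the 13 lines, whereas extra domain B runs from 13.1% in TC71 to 97.0% in RDES.

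THBS1 encodes thrombospondin-1, a secreted activator of latent TGF-beta and inhibitor of vessel growth (chr15:39581079-39599466). The 7 Ewing lines ran from 0.0828 TPM in TC71 through a median of 0.731 to 8.38 TPM in A673. The 6 osteosarcoma lines ran from 53.1 TPM in G292 through a median of 79.5 to 220.5 TPM in SAOS2. THBS1 was the only one of the 10 genes whose tumour types did not overlap, which held for 2.39% of all genes in that direction. The 3 A673 libraries were at 6.64, 10.3 and 8.23 TPM and the 3 G292 libraries at 36.02, 60.2 and 63.1 TPM, so even the closest lines of the types did not overlap in their libraries. The median of the osteosarcoma lines was 109 times that of the Ewing lines. SAOS2 (220.5 ± 6.24 TPM, SD, n = 3) stood above the other 5 osteosarcoma lines, of which U2OS, MG63, HOS-MNNG, KHOS and G292 each overlapped with the next. THBS1 fell in the Ewing lines by 5.78 on the log2 scale (SE 0.98, edgeR adjusted p = 0.0024), and it was lower in 7 of 7 Ewing lines. An exact permutation test over all 1716 splits of the lines on log2(TPM + 1), two-sided, gave a difference of -5.42 and p = 0.000583, the smallest it can give (adjusted p = 0.0158). That test called 11.7% of all genes, 5.15% as lower, and of the 10 genes THBS1 alone.

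THBS2 encodes thrombospondin-2, a close relative that binds matrix proteases (chr6:169215785-169253846), and its pattern over the lines was another one. In Ewing lines it ran from no count in any of the 3 SKES1 libraries through a median of 0.414 TPM to 8.92 ± 2.83 TPM (SD, n = 3) in TC71, the line with the least THBS1. In osteosarcoma lines it ran from 0.507 TPM in U2OS through a median of 20.6 to 217 ± 11.8 TPM in MG63. TC71 stood above KHOS (4.32 TPM), HOS-MNNG (1.91 TPM) and U2OS, so the types overlapped. G292 (75.7 ± 14.9 TPM) and SAOS2 (36.98 ± 6.72 TPM) followed MG63 without overlap. The log2 fold change of -4.62 (SE 1.69) did not pass edgeR's test (adjusted p = 0.0849).

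The 250 bases before the start site of both thrombospondin genes are shown because their products are relatives while their levels separated the tumour types differently (RefSeq, GRCh38.p14, 5′ to 3′ on the gene's strand, THBS1 at chr15:39580829-39581078 and THBS2 at chr6:169253847-169254096). Capitals mark the core letters GGAATG known for TEAD factors, on either strand, and the TATA letters TATAAA.
THBS1: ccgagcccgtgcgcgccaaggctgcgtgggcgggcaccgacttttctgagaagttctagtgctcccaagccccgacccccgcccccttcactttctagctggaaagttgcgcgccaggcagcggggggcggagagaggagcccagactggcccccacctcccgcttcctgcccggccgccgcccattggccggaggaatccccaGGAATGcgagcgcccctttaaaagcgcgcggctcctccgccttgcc
THBS2: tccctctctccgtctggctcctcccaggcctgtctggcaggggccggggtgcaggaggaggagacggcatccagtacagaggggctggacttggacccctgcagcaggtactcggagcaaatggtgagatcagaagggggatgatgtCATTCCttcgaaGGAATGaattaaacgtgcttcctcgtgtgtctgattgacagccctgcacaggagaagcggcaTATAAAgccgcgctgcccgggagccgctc
The TEAD letters stood at -46 in THBS1 and at -103 and -91 in THBS2, once on each strand in the latter. THBS2 also held TATAAA at -29, as did POSTN, which held it again at -182, and THBS1 held none. Of all 34943 promoter windows of this length, 11.9% held GGAATG and 10.8% held TATAAA. Of the 8 genes with a window (LUM and DCN were not matched), SPARC and FBN1 also held GGAATG, FN1 held TGACGTC of the cAMP response element, in 3.1% of all windows, and POSTN held TGANTCA of AP-1, in 6.59%. None held CCGGAAG, a site of ETS factors found in 8.48% of all windows. Such matches describe letters, not binding.

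TNC encodes tenascin-C, a large hexameric protein known from developing and wounded tissue (chr9:115019575-115118157). The Ewing lines ran from 0.280 TPM in TC71 through a median of 1.24 to 34.4 ± 5.14 TPM (SD, n = 3) in A673. The osteosarcoma lines ran from 3.90 TPM in MG63 through a median of 16.96 to 163 ± 21.8 TPM in SAOS2. A673 stood apart from the other Ewing lines, the next of which was MHHES1 at 6.24 TPM, and it exceeded 4 of the 6 osteosarcoma lines. TNC did not pass the test (log2 fold change -2.74, SE 1.20, edgeR adjusted p = 0.144). Without A673 it was called, with a log2 fold change of -4.74 and an adjusted p of 0.0118.

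POSTN encodes periostin, a matricellular protein of periosteum and ligament (chr13:37562585-37598768), and it was the most concentrated of the 10, with 82.9% of its sum over the 13 lines in MG63. The MG63 libraries were at 428, 402 and 331 TPM, and G292 followed at 65.6 ± 8.40 TPM (SD, n = 3). Next came A673 (9.28 ± 3.76 TPM) and EW3 (3.36 ± 1.86 TPM), both Ewing lines. The other 4 osteosarcoma lines held 0.267 TPM or less and TC71 held no count, so the osteosarcoma median of 0.165 TPM was below the Ewing median of 0.248. The log2 fold change of -5.26 (SE 2.33), with 2 osteosarcoma lines high and 4 low, did not pass edgeR's test (adjusted p = 0.149). It was -2.72 without MG63 and -6.88 without A673 (adjusted p 0.424 and 0.105).

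SPARC encodes osteonectin, a collagen-binding protein abundant in bone (chr5:151661096-151686915), and it was the most evenly spread of the 10. In Ewing lines it ran from 26.7 TPM in SKES1 through a median of 92.6 to 618 TPM in A673, and in osteosarcoma lines from 163 TPM in HOS-MNNG through a median of 389 to 1334 TPM in MG63. U2OS (809.8 ± 24.2 TPM, SD, n = 3) was second, above A673 and SAOS2 (521 ± 22.3 TPM). A673, MHHES1 and RDES exceeded at least 1 osteosarcoma line, and the other 4 Ewing lines lay below all of them. SPARC did not pass the test (log2 fold change -1.45, SE 0.71, edgeR adjusted p = 0.191) but was called without A673 (-2.19, adjusted p = 0.0389).

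FBN1 encodes fibrillin-1, the main subunit of microfibrils (chr15:48408313-48645709). Its Ewing levels ran from 0.125 TPM in EW24 through a median of 2.51 to 9.27 TPM in RDES, and its osteosarcoma levels from 3.65 TPM in U2OS through a median of 41.2 to 141 TPM in MG63. MG63 (141 ± 15.8 TPM, SD, n = 3), G292 (91.2 ± 2.77 TPM) and SAOS2 (70.2 ± 6.64 TPM) formed a high group that no other line reached. HOS-MNNG (12.2 TPM), KHOS (6.08 TPM) and U2OS overlapped with Ewing lines in their libraries, HOS-MNNG with RDES, KHOS with A673 and MHHES1, and U2OS with MHHES1 and EW3. FBN1 fell in the Ewing lines by 4.17 on the log2 scale (SE 1.11, edgeR adjusted p = 0.0248). The permutation test on log2(TPM + 1) gave -3.13 and an adjusted p of 0.0675 and did not call it.

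VCAN encodes versican, which with hyaluronan forms a loose, hydrated matrix (chr5:83471744-83582302). Levels in the Ewing lines ran from 0.0155 TPM in TC71 through a median of 0.259 to 1.82 ± 0.181 TPM (SD, n = 3) in RDES. Levels in the osteosarcoma lines ran from 0.0794 TPM in U2OS through a median of 5.12 to 58.3 ± 9.68 TPM in G292. MG63 held 29.6 TPM and SAOS2 and KHOS about equal, overlapping levels (5.28 and 4.96 TPM), while U2OS lay below 5 of the 7 Ewing lines. VCAN fell in the Ewing lines by 5.52 on the log2 scale (SE 1.41, edgeR adjusted p = 0.0201), and the permutation test did not call it (-2.51, adjusted p = 0.0606). Versican's neighbour HAPLN1 encodes a link protein that clamps versican to hyaluronan, and its level followed other lines, with 179 ± 85.6 TPM in SAOS2, 98.5 ± 17.6 in U2OS, 41.4 ± 1.90 in MHHES1 and 31.1 ± 1.80 in RDES, against 0.0144 TPM in G292 and no count in MG63. Of the versican messages, the V1 form, which lacks 1 of the 2 large chondroitin sulfate exons, made up 68.8% ± 18.4 (SD, n = 5) in the 5 osteosarcoma lines with enough counts. V0, which has both exons, made up 14.5% in HOS-MNNG, 16.3% in KHOS, 22.9% in G292, 48.8% in MG63 and 53.2% in SAOS2. V0 made up 51.9% in RDES, the only Ewing line with enough counts. The V2 form was at 0 in those 5 osteosarcoma lines.

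LUM encodes lumican and DCN decorin, and the 2 genes are neighbours at chr12:91102629-91111494 and chr12:91140484-91182817. LUM was very high in 2 lines, with libraries at 1397, 1242 and 1435 TPM in G292 and at 444, 290 and 340 TPM in SAOS2. MG63 (33.2 TPM) and U2OS (24.5 TPM) followed, whereas HOS-MNNG and KHOS held 0.142 and 0.0200 TPM. The Ewing lines ran from 0.00656 TPM, a single count, in A673 through a median of 0.625 to 9.57 ± 0.979 TPM (SD, n = 3) in SKES1. LUM fell in the Ewing lines by 6.60 on the log2 scale (SE 2.02, edgeR adjusted p = 0.0446). This call depended on single lines: it was lost without any 1 of the 7 Ewing lines and without G292 or SAOS2 (adjusted p 0.0591 to 0.104, log2 fold change -7.21 to -4.64), and the permutation test did not make it (adjusted p = 0.228).

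DCN was at 26.6 ± 1.42 TPM (SD, n = 3) in G292 and 20.6 ± 2.38 TPM in MG63, and the next 4 lines were all Ewing lines: SKES1 (7.14 TPM), EW24 (3.38 TPM), EW3 (2.27 TPM) and TC71 (1.54 TPM). The other 4 osteosarcoma lines held 0.205 TPM or less, and KHOS held no count. The osteosarcoma median of 0.134 TPM was thus below the Ewing median of 1.54 TPM while the osteosarcoma mean was above the Ewing mean (7.91 and 2.09 TPM). The log2 fold change of -2.01 (SE 1.72) did not pass edgeR's test (adjusted p = 0.472), and on log2 CPM of the same lines the mean difference was 0.96, with the Ewing lines higher. SKES1, EW24 and TC71, which held the most LUM of the Ewing lines and with EW3 the most DCN, were the 3 Ewing lines with the least FN1, TNC and FBN1. The further genes of this proteoglycan cluster differed: KERA (keratocan) was at 0.0879 TPM or less in every line and EPYC (epiphycan) was found in SAOS2 alone above 1 TPM, at 23.2 TPM. The second DCN transcript, NM_133503.4, made up 23.1% ± 2.38 of DCN in MG63, 8.63% ± 5.44 in SKES1 and under 1% in G292, EW24 and EW3.

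**Figure D3:**
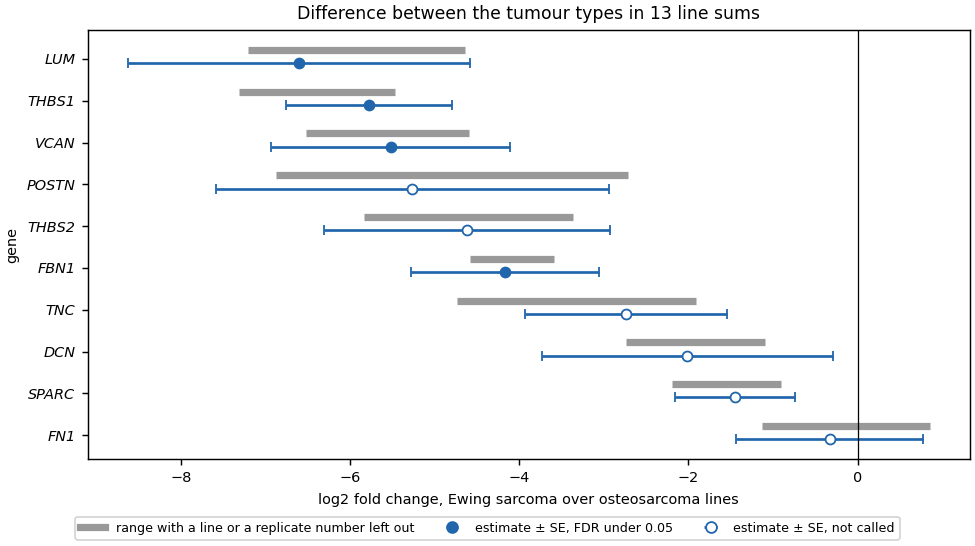
Log2 fold change of each gene in the Ewing lines against the osteosarcoma lines with its standard error (bars), from edgeR's quasi-likelihood test on 7 and 6 line sums, with filled points for called genes and grey bands for the range with a line or replicate number left out. THBS1, FBN1, VCAN and LUM are called, between -6.60 and -4.17, and FN1 lies nearest 0 at -0.33.

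Taken as a sum, the 10 genes ranged from 86.4 ± 11.3 TPM (SD, n = 3) in SKES1 to 3961 ± 320 TPM in G292. The order of the sums was G292, MG63 (2961 ± 100.02), A673 (2021 ± 201), SAOS2 (1517 ± 136), U2OS (1116 ± 78.2), MHHES1, EW3, RDES, KHOS, HOS-MNNG, EW24, TC71 and SKES1. The Ewing line A673 thus stood above 4 of the 6 osteosarcoma lines, and both HOS derivatives were in the lower part. In every line the leading gene was FN1 or SPARC, from FN1 at 88.6% of the sum in EW3 to SPARC at 34.3% in SAOS2. The 8 genes other than FN1 and SPARC held 13.7% of the sum in U2OS to 56.3% in SAOS2 among osteosarcoma lines and 1.24% in MHHES1 to 21.9% in SKES1 among Ewing lines, so the types overlapped. LUM held 34.3% of the sum in G292 and 23.6% in SAOS2, and THBS1 held 24.3% in HOS-MNNG. All 10 genes reached 10 TPM in G292, 9 in MG63, 7 in SAOS2, 5 in U2OS and HOS-MNNG and 3 in KHOS, against 3 in A673, 2 in 5 other Ewing lines and 1 in TC71. For all 10, the highest line was an osteosarcoma line, which was G292 for 4 (FN1, VCAN, LUM and DCN), MG63 for 4 (THBS2, POSTN, SPARC and FBN1) and SAOS2 for 2 (THBS1 and TNC). TC71 was the lowest of the 13 lines for 5 of them.

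**Figure D4:**
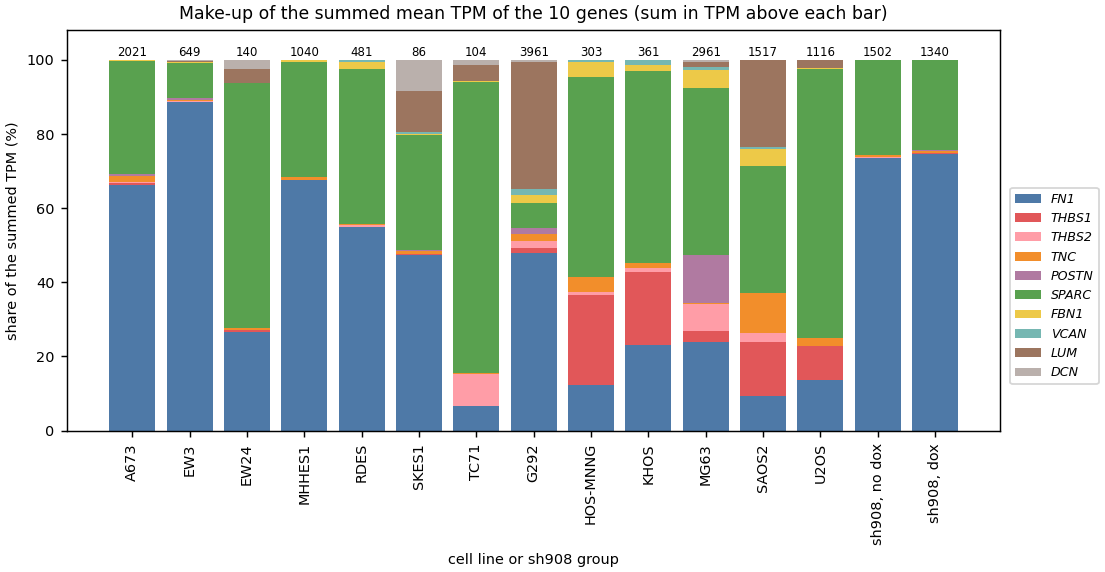
Share of the summed TPM of the 10 genes held by each gene, 1 bar a line or sh908 group from 0 to 100%, means of 3 libraries, with the sum in TPM above the bar. FN1 or SPARC leads in every line, while LUM takes 34.3% in G292 and 23.6% in SAOS2 and THBS1 takes 24.3% in HOS-MNNG.

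The lines of common origin, KHOS and HOS-MNNG, had levels of several of these genes that did not overlap. In KHOS, FN1 was 2.22-fold, THBS2 2.26-fold and VCAN 2.82-fold the HOS-MNNG level, while TNC was at 0.429 and FBN1 at 0.5004 of it, with no overlap of the 3 libraries each. THBS1 and SPARC overlapped between them (ratios 0.959 and 1.14). POSTN, LUM and DCN were at or below 0.267 TPM in both, also without overlap. The libraries of these lines did not overlap for 52.1% of all 22000 genes, and no test was made between them.

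Across lines, pairs of the 10 genes moved differently within the tumour types. These are descriptions on log2(TPM + 1) of line means, over 7 Ewing and 6 osteosarcoma lines that share no library. Pearson's r of THBS1 with TNC was 0.97 in Ewing and 0.46 in osteosarcoma lines. That of FN1 with LUM was -0.88 and 0.78, that of SPARC with DCN was -0.93 and 0.32, and that of THBS2 with FBN1 was 0.12 and 0.96. LUM and DCN were positive in both types (0.86 and 0.58). The gene most like SPARC, by the smaller of its correlations within the types over 14107 genes, was CAVIN1, a caveola protein, at 0.95 and 0.86, followed by TRAM2 and ANXA11. FN1 was most like GADL1, EFEMP2 and DRAXIN, THBS1 like SP6, FHDC1 and SH3BGRL2, and THBS2 like ADAMTS14 and the near-identical copies F8A2 and F8A3. POSTN was most like TCF12, PDE4B and CD44, FBN1 like B2M, ZNF271P and BDKRB2, and VCAN like ADCY6, TOX and MXRA8. LUM was most like VSNL1, WNT10B and ZNF503, and DCN like NLGN1, LTBP1 and LOC105379549. With 6 or 7 points, 1 line can set such a value, and all 14107 genes were searched.

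Genes of the same families were called in both directions. Of 44 family relatives, 35 were tested between the tumour types, 8 were called lower and 2 higher in the Ewing lines, with a median log2 fold change of -0.40. Of all genes tested, 14.4% were called in either direction and 8.4% as lower. The lower ones included LTBP2, a latent TGF-beta binding protein of the fibrillin family (0.245 ± 0.266 TPM in 7 Ewing and 23.8 ± 18.9 TPM in 6 osteosarcoma lines, log2 fold change -6.67, edgeR adjusted p = 0.00938), EFEMP1, a fibulin (-6.66), and SMOC1, a SPARC relative (-6.08). The higher ones were FBN3, a fibrillin (4.59 ± 6.29 and 0.0143 ± 0.0341 TPM, log2 fold change 8.48, edgeR adjusted p = 0.017), and SPARCL1, at 0.752 and 0.0886 TPM. None of the 2 further thrombospondins and 3 further tenascins tested was called, with median log2 fold changes of 0.29 and 0.33. The closest relative of periostin, TGFBI, was called lower (-6.00), and it is named because it is alone in its group.

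Of 16 receptors of these proteins, 14 were tested, 7 were called lower and none higher in the Ewing lines, with a median log2 fold change of -1.78, beside 8.4% of all genes called lower and 14.4% in either direction. CD44, the hyaluronan receptor, was at 1.34 ± 2.68 TPM in the Ewing lines and 284.6 ± 339.8 TPM in the osteosarcoma lines (log2 fold change -7.78, edgeR adjusted p = 0.00741). ITGB3, an integrin chain that binds fibronectin and thrombospondin, fell by 5.38, and SDC1, a syndecan, fell by 3.79 on the log2 scale. Of 10 proteases, 9 were tested, 3 were lower and 1 higher. MMP2, which cuts denatured collagen and fibronectin, was at 32.7 ± 24.5 and 536 ± 605 TPM (-4.14), MMP14, its cell-surface activator, fell by 2.14 and ADAMTS5 by 6.42. ADAMTS4, which cuts aggrecan and versican, was higher in the Ewing lines, at 23.2 ± 18.8 and 0.718 ± 1.28 TPM (log2 fold change 4.401, edgeR adjusted p = 0.00466). Its relation to versican, which was low in those lines, was not tested. Of 20 genes that make chondroitin and dermatan sulfate chains, all were tested and 3 were called lower: CSGALNACT1 (-3.55), CHPF (-1.85) and B4GALT7 (-1.08). Of all genes, 14.4% were called, 8.4% as lower.

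In the sh908 cells the target was checked first, and replicate 3 of both groups stood apart. On CPM (a scaled share of the counts, not per length) adjusted by edgeR's trimmed mean of M-values, KCNN1 was at 121, 113 and 37.1 in uninduced replicates 1 to 3 and at 35.1, 43.2 and 16.8 in the induced ones. It was lower in the induced library of each number, but uninduced replicate 3 lay within the induced range. For 34.3% of 14252 genes both libraries numbered 3 were above all libraries numbered 1 and 2, and for 36.1% below them. Among the members, FN1 (1.52-fold), THBS2 (2.05-fold) and TNC (2.34-fold) were above and POSTN (0.529-fold) below in the libraries numbered 3. Scaled CPM is used here because the 10 most abundant genes held 12.1 to 18.1% of TPM in the sh908 libraries and 7.77 to 8.65% in parental A673. The median log2 TPM ratio of all genes between uninduced and parental cells was -0.41, while that of the scaled fit was 0.01. VCAN and DCN had at most 14 counts in any sh908 library and LUM had none in the 6, so 7 of the 10 genes passed the filter on low counts.

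With doxycycline, none of these 7 genes passed the test. FN1 was at 5197, 5887 and 8446 scaled CPM in the uninduced and 4929, 5618 and 7976 in the induced libraries (log2 fold change -0.09). SPARC was at 1001, 879 and 1047 and then at 767, 809 and 985 (-0.21). The induced library was lower at each number for FN1 and SPARC, and the ranges of the groups overlapped. FBN1 was at 30.5, 16.8 and 15.8 scaled CPM uninduced and 14.3, 18.2 and 12.8 induced (-0.49), and THBS1 at 6.34, 1.36 and 2.30 and then 8.41, 3.41 and 2.58 (0.50), higher in the induced library at each number. THBS2, TNC and POSTN differed by -0.24, -0.16 and -0.04 on the log2 scale. The groups overlapped for all 7 genes, whereas they did not for 3.99% of all genes. The edgeR test called 0 of the 7 and 0% of all 14252 genes (94 had an unadjusted p under 0.05, and DESeq2 called 2 genes, 0.014%, none of them a member). Exact permutation tests of the members used log2(TPM + 1), not scaled CPM, and ignored the replicate numbers. They included the low-count VCAN and DCN, and LUM, whose lack of any count fixed its p in advance. These exact permutation tests gave p from 0.3 to 1, and 3 against 3 cannot go below 0.1. The libraries with the same number deviated together, and a fit with the replicate number as a block called 73 genes, 0.512% of all, and again no member (adjusted p 0.394 to 0.961). With the block, THBS1 had a log2 fold change of 0.54 (adjusted p = 0.429), SPARC of -0.22 (0.394) and FBN1 of -0.45 (0.419). Of the listed proteases FURIN, a processing protease, was called in that fit (0.57, adjusted p = 0.0362).

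**Figure D5:**
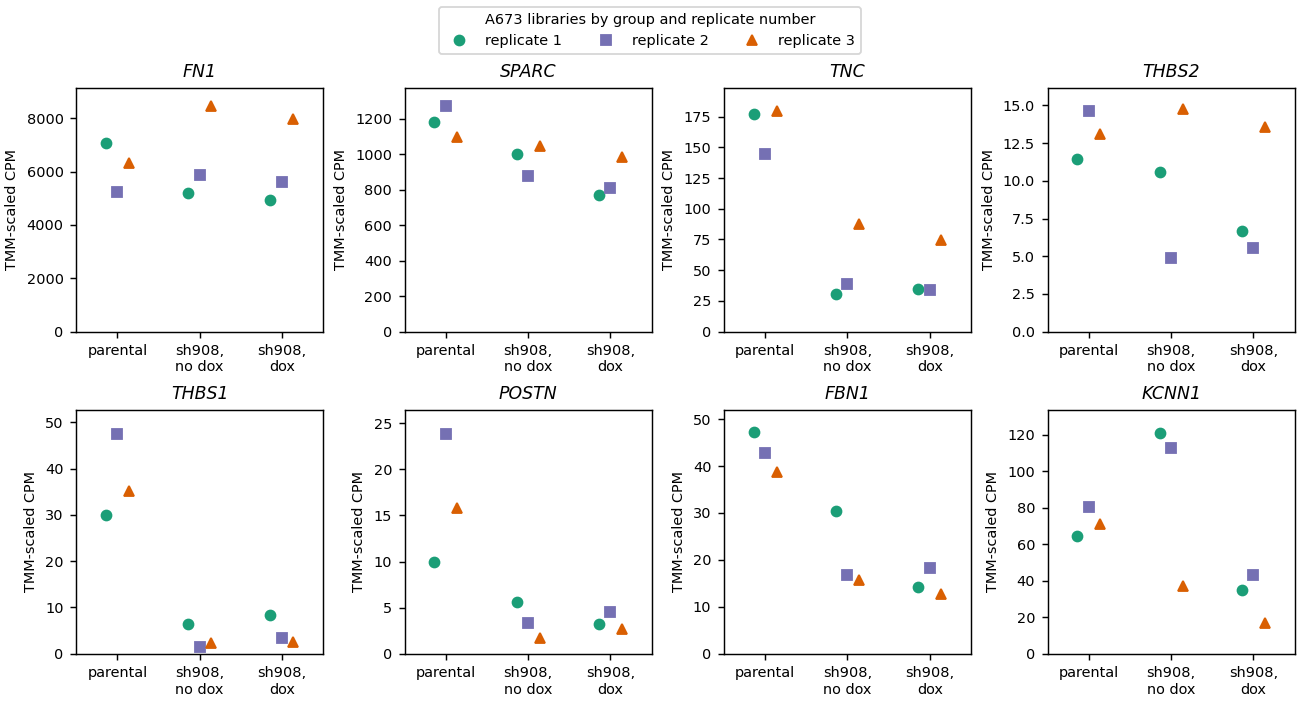
Scaled CPM of the 7 tested genes and KCNN1 in each library of parental A673, uninduced and induced sh908 cells, on linear axes from 0, with replicate numbers as marker shapes and colours. THBS1 is at 29.9 to 47.4 in parental and 1.36 to 8.41 in sh908 cells, and libraries with and without doxycycline overlap for every gene.

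The sh908 cells without doxycycline held less THBS1, TNC, POSTN and FBN1 than parental A673. This comparison shares the uninduced libraries with the one above, and whether the parental and sh908 libraries were prepared together is not in the labels, so the hairpin line and the library series cannot be told apart. THBS1 was at 29.9, 47.4 and 35.1 scaled CPM in parental and 6.34, 1.36 and 2.30 in uninduced cells (log2 fold change -3.50, SE 0.54, edgeR adjusted p = 0.0142). TNC was at 178, 144 and 179.8 in parental and 30.9, 38.9 and 87.7 in uninduced cells (-1.67, adjusted p = 0.0394). Neither gene's groups overlapped. POSTN was at 9.91, 23.8 and 15.8 and then 5.63, 3.36 and 1.73 (-2.23, adjusted p = 0.0329), and FBN1 at 47.3, 42.7 and 38.8 and then 30.5, 16.8 and 15.8 (-1.04, adjusted p = 0.0436). SPARC was lower in every uninduced library (1183, 1270 and 1098, then 1001, 879 and 1047) but was not called (-0.28, adjusted p = 0.275). The groups did not overlap for these 5 genes, as for 22% of all genes in that direction, while FN1 (0.07) and THBS2 (-0.37) overlapped. The 4 calls among 7 genes stand beside 15.1% of all 15778 genes called, 6.42% as lower. The calls depended on single libraries: 0 of the 7 were called without any 1 parental library (2 to 8 genes called in all), 3 without uninduced replicate 1 (8.25% of all genes called), 1 without replicate 2 (1.6%) and 6 without replicate 3 (62.3%). Over these leave-outs the log2 fold changes stayed below 0, from -4.30 to -3.15 for THBS1, -2.27 to -1.39 for TNC, -2.71 to -1.86 for POSTN and -1.38 to -0.86 for FBN1.

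Among the other lists, uninduced sh908 cells had lower TNN, a tenascin (-2.98), FSTL1, a SPARC relative (-1.69), SDC4, a syndecan (-1.17), and ITGB1, the integrin chain of the main fibronectin receptor (-0.92), than parental cells. BCAN, a relative of versican, was higher (2.64). These were 1 higher and 2 lower of 24 family relatives tested, and 2 lower of 13 receptors, shares near the 15.1% called of all genes. Of the 7 proteases tested, ADAMTS15 was lower (-2.02) and MMP2 higher (1.03). Of 20 chain-making genes, 5 were higher, among them XYLT1, which starts the chains, at 2.25, CHST11 at 1.99 and CHST15 at 1.03. Another 5 were lower, among them CHSY3 at -3.30, DSE at -1.03 and CHPF2 at -0.61. Of the 8 Ewing sarcoma markers, all tested, PRKCB (0.90) and NKX2-2 (1.21) were called higher and none lower. Of the 8 osteoblast markers 5 were tested and none was called, with COL1A1 at -0.55 (edgeR adjusted p = 0.341). Of the 13 markers of other cell types 4 were tested, of which the muscle gene DES was higher (4.94, from 0.0977 to 2.47 ± 3.004 TPM) and PECAM1 lower (-1.76), while the muscle factors MYOD1 and MYOG had no count in parental cells and at most 0.0153 TPM in the mean of the uninduced ones. Their part in the lower THBS1, TNC, POSTN and FBN1 was not tested. FN1 of the sh908 cells held extra domain A in 80.6% ± 9.52 (uninduced) and 86.5% ± 2.75 (induced) and extra domain B in 33.7% ± 3.04 and 25.5% ± 9.62 (SD, n = 3), against 93.3% ± 0.830 and 41.7% ± 3.72 in parental A673. Uninduced replicate 3 had the lowest extra domain A share of the 6 sh908 libraries, 69.8%.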

How the data were processed

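Poly(A) RNA of 45 libraries (39 of the 13 lines, 6 of sh908) was measured. Per the submitters' processing notes, the authors used fastp 0.19.5 and kallisto 0.46.2 with hg38 and GRCh38.p14; the strand setting is not given in the sources used here. Per the file headers, the deposited tables give an estimated count, TPM and effective length (other) per transcript. Transcripts were joined to symbols through RefSeq (95.6%; the rest held 0.91 to 1.60% of the counts) and summed per gene. Estimated counts were rounded and tested with edgeR 4.0.16 (robust quasi-likelihood test, filterByExpr, TMM scaling, R 4.3.3), on sums of 3 libraries per line or on single libraries; DESeq2 1.42.0 and permutation on log2(TPM + 1) were alternatives, with leave-outs, other scaling, no filter and a replicate block. The scripts were tested on simulated data. Of 100 genes changed 4-fold, 43 were recovered between the tumour types, 65 with doxycycline and 81 between uninduced and parental cells. Same-numbered uninduced and induced libraries deviated together (r 0.610 to 0.872, all above the least value of 0.1). Their numbers were taken as pairs in the replicate block only, not in the main fit or the permutation test. The pairing rests mainly on number 3: induced replicate 2 was nearer uninduced replicate 1 (0.621) than 2 (0.610). Transcript shares needed 100 counts per library. The members and lists were chosen with earlier results of these data known. All members were named; of each other list, the 3 genes called with the largest rise and fall, and the 3 genes most like each member (those of TNC are not reported here).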

Additional observations from a re-analysis of the deposited data

Results flagged for a closer look

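THBS1 in A673, at 8.38 TPM, lay far from the other 6 Ewing lines, the next of which was MHHES1 at 1.41 TPM. VCAN in RDES, at 1.82 TPM, lay far from the other 6 Ewing lines, the next of which was SKES1 at 0.498 TPM. On log2(TPM + 1), each gap was a larger share of the group's range than Dixon's critical value of 0.568 for 7 samples allows (0.630 and 0.619). 20 groups were tested, and chance flags about 1 group in 20.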

How the results depend on the processing

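Between the tumour types, 4 of 10 genes were called, as with RLE factors, an effective length offset, no filter on low counts or the HOS derivatives summed. DESeq2 called 6 (5404 genes in all against 3159), and the range was 3 to 5 without single lines or replicates. THBS1, FBN1 and VCAN kept their call in all of these fits, with log2 fold changes over the leave-outs from -7.32 (without A673) to -5.47, from -4.58 to -3.58 (without MG63) and from -6.53 (without RDES) to -4.59 (without G292), and the uncalled THBS2 ran from -5.84 to -3.37 and DCN from -2.74 to -1.09. A fit of 39 libraries by line means with a replicate block, which takes libraries of 1 line as independent, called 9 of the 10 and 16743 of 23796 genes, and there DCN turned to 1.39. DCN also turned in the permutation test with a pseudocount of 0.1 (0.17) and on log2 CPM (0.96), and FN1 in edgeR without G292 (0.85; -1.13 at the other end, without A673). For doxycycline no setting called any member it tested (7 with the filter on low counts), and the signs of 5 genes turned: over the leave-outs FN1 ran from -0.36 to 0.16, THBS1 from -0.15 to 1.36, THBS2 from -0.78 to 0.18, TNC from -0.67 to 0.46 and POSTN from -0.37 to 0.43, while SPARC (-0.36 to -0.12) and FBN1 (-0.66 to -0.13) stayed below 0. With the replicate block POSTN was at 0.051, and at 0.53 with the block and without replicate 1 of both groups. Without induced replicate 1, FN1 was at 0.06, TNC at 0.04 and POSTN at 0.03; TNC was at 0.03 without induced replicate 2 and POSTN at 0.09 without induced replicate 3. For uninduced against parental cells, 4 genes were called, 0 to 6 in leave-outs (2 to 10202 of all genes) and 4 by DESeq2 (4169 of all genes against 2388). Their replicate numbers do not pair (r 0.023, 0.097 and 0.212, and uninduced replicate 1 was nearest parental replicate 2); a replicate block left 1 call, THBS1, and 319 genes in all, and 2, 2 and 3 calls without replicates 1, 2 and 3 of both groups (205, 345 and 8250 of all genes). FN1 turned there in leave-outs (-0.17 to 0.22, -0.04 without parental replicate 2), and with the block without replicate 2 (-0.0058) or 3 (-0.13) of both groups, as did THBS2 without replicate 2 (0.0385). The cause was not tested. VCAN and DCN held 14 counts or fewer in each sh908 library and 7 or fewer in each parental library, too few to pass the filter on low counts.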
